A study of Homo sapiens with 9 samples.

Results

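PLA2G5, UPP1, MIA2 and C17orf37 (now named MIEN1) are 4 genes that stood near the top of the increases published for keratinocytes exposed for 1 h to an extremely low frequency electromagnetic field (ELF-EMF). Each was measured by 1 probe, out of 30968 probes and 15240 distinct gene symbols in the deposited array table. They were selected on the readout itself, namely the increase published from these same arrays and a ratio that leaned towards the Cy5 channel. Their values are therefore given as a description, with no test. On the arrays where RNA of exposed cells carried Cy5, the log2 ratio of exposed over non-exposed averaged 1.16 ± 0.16 for PLA2G5, 0.97 ± 0.22 for UPP1, 1.05 ± 0.25 for MIA2 and 0.92 ± 0.12 for MIEN1 (SD, n = 3 biological samples). On the dye-swap arrays, where the same RNA carried Cy3, the exposed over non-exposed ratio averaged below 0 for all 4 genes, at -0.32 for PLA2G5, -0.41 for UPP1, -0.51 for MIA2 and -0.19 for MIEN1. Such a value was not particular to them. Over 570 probes measured in both orientations of all samples, the median log2 Cy5 over Cy3 on the swaps was 0.04, 0.31 and 0.17 in A, B and C. By swap average in Cy5 over Cy3, the genes ranked 187, 150, 103 and 274 of these probes. With both orientations weighted equally, the log2 ratio was 0.42 ± 0.38, 0.28 ± 0.32, 0.27 ± 0.32 and 0.36 ± 0.15 in the same order.

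HaCaT is an immortalized, non-tumorigenic human keratinocyte line. Exposed cells received 50 Hz and 1 mT for 1 h, and the controls, which the labels call sham and the methods non-exposed, stood without the field in a second incubator of the same kind. Per the methods, all cells had been serum-starved and then released by adding serum back, so both groups share that stimulus, and all come from 1 cell line. The 9 arrays came from 3 biological samples named A, B and C, each run on a first and a second array with exposed RNA in Cy5 and on 1 dye swap. Each array compared amplified RNA of exposed and control cells directly. The arrays of 1 sample are technical runs, so the 3 biological samples limit the precision. A ratio of bulk RNA cannot tell fewer cells of a kind from less RNA per cell.

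The table is sparse, which decides how many neighbours these genes can be set against. An array held between 1164 and 7250 values, or 3.76% to 23.4% of the probes, and 20744 probes had no value on any array. Only 570 probes had a value in both orientations of all 3 biological samples, and only these were tested across the table. PLA2G5, UPP1, MIA2 and MIEN1 were all among them, with 8 of 9 values each. The array medians of the log2 Cy5 over Cy3 ratio ran from -0.35 to 0.38, and the medians were left as deposited. The keratinocyte label could be checked on 16 marker genes on the array, such as keratins and desmosomal proteins, of which 14 had a value. Of 16 markers of fibroblasts, melanocytes, immune and endothelial cells on the array, 3 had a value. A value says only that a probe was reported, since the table holds no intensities.

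The proteins of the 4 genes act in different places. PLA2G5 encodes a secreted, calcium-dependent phospholipase A2, which cuts a fatty acid from membrane phospholipids. The arachidonic acid freed by such enzymes is the substrate of prostaglandin and leukotriene synthesis, which keratinocytes carry out after injury. UPP1 encodes uridine phosphorylase, which splits uridine into uracil and ribose 1-phosphate, so it sets uridine levels and can feed the sugar into energy metabolism. MIA2 encodes a membrane protein of endoplasmic reticulum exit sites, related to the cargo receptor MIA3 (TANGO1) that helps load large cargo into COPII-coated carriers, and a secreted-domain form is known from liver. MIEN1 encodes a small prenylated protein with a thioredoxin-like fold that lies at the inner face of the plasma membrane and is known for promoting migration of cancer cells. A transcript ratio after 1 h reports RNA levels, not enzyme activity, secretion or protein amount, none of which these arrays measured.

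In the RefSeq annotation of GRCh38.p14, PLA2G5 lies at chr1:20028408-20091911, UPP1 at chr7:48088704-48108736, MIA2 at chr14:39233915-39388522 and MIEN1 at chr17:39728510-39730532. MIEN1 spans only 2023 bases, and its 3′ end shares 149 bases with ERBB2 on the opposite strand. On its other side, GRB7 starts 7406 bases away. The sequences and positions of the probes were not used here, so it is not known whether the MIEN1 probe falls in the shared bases, or which transcript form any of the 4 probes reads. The array also carries 3 probes named CTAGE5, a symbol now joined to MIA2 in RefSeq. Only 1 of them had a value, on 1 array, with a log2 Cy5 over Cy3 of 0.27, so the MIA2 values below rest on a single probe.

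The windows around the annotated starts are shown as a description, and a link between them and the ratios was not tested. Each window runs from 250 bases before to 50 bases after a RefSeq start, 5′ to 3′ on the gene's strand. The PLA2G5 window lies inside the annotated gene, which begins at chr1:20028408, so the outermost 5′ end of that gene is not shown. Capitals mark an AP-1 element (TGACTCA or TGAGTCA), an E-box (CACGTG) or a GC box (GGGCGG or CCGCCC), all read on both strands. MIA2 had no entry in the promoter table. A further UPP1 window, chr7:48089015-48089314, overlaps the downstream one and is not printed.
PLA2G5, chr1:20069944-20070243, plus strand: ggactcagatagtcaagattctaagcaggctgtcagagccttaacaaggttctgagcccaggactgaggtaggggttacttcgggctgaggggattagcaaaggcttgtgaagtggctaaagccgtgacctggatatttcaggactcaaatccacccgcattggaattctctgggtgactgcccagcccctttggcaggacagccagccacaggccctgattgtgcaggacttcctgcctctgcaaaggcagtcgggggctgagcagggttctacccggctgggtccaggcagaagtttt
UPP1, upstream start, chr7:48088454-48088753, plus strand: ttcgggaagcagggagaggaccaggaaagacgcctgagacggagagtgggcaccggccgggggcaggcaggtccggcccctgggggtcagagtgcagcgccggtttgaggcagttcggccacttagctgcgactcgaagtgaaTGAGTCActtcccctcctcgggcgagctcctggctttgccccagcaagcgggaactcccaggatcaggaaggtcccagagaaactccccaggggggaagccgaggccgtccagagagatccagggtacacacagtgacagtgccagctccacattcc
UPP1, downstream start, chr7:48089004-48089303, plus strand: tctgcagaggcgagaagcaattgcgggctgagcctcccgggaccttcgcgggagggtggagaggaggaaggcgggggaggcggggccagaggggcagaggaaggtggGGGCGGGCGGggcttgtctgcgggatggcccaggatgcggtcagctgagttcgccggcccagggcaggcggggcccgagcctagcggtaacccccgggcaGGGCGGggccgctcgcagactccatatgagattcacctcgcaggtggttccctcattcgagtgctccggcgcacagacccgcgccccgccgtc
MIEN1, chr17:39730483-39730782, minus strand: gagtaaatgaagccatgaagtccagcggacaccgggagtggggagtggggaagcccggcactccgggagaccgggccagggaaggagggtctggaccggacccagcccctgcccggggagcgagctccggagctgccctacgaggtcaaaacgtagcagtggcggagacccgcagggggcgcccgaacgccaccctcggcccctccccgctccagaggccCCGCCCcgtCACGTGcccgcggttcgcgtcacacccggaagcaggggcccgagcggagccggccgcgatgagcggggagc

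The windows had little in common. The PLA2G5 window was 55.7% G or C with 5 CpG dinucleotides and held none of the motifs searched. The upstream UPP1 window was 64.3% G or C and held 1 AP-1 element, the downstream one was 71.7% G or C with 28 CpG and held 3 GC boxes, of which the first and second overlap. The MIEN1 window was 73.0% G or C with 32 CpG, 1 GC box and 1 E-box. Over all 35116 windows of the table the median was 58.7% G or C. There, 4.95% held the AP-1 element, 7.26% the E-box and 45.0% the GC box. A cyclic AMP response element (TGACGTCA) and a TATA box (TATAAA or TTTATA) were also searched, occurred in 1.85% and 11.5% of all windows, and were in none of the 4 printed here. A match of letters is a description and says nothing about a factor.

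Of the 4 genes, PLA2G5 had the highest average where exposed cells carried Cy5 (called Cy5 arrays from here on). Its log2 Cy5 over Cy3 was 1.19 on the second array of sample A, 1.40 and 1.21 on the first and second arrays of sample B, and 1.15 and 0.84 on those of sample C, while the first array of sample A had no value. On the dye swaps the Cy5 over Cy3 ratio was 0.14 in sample A, -0.15 in sample B and 0.99 in sample C. The swap of sample C therefore lay inside the range of the Cy5 arrays, so the orientations overlap, and the swaps of A and B lay below all 5 Cy5 values. Its SD over the 5 Cy5 arrays was 0.21, below the median of 0.30 for tested probes. On the second array of sample B it had the highest ratio of all 365 tested probes with a value there. The ratio of this secreted phospholipase was thus high on the Cy5 arrays of every sample, but the exposed channel was the higher one on the swap of sample B only.

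UPP1 was the only one of the 4 whose Cy5 channel was the brighter on all 8 arrays with a value. Its log2 Cy5 over Cy3 was 1.22 on the second array of sample A, 1.15 and 0.62 on the arrays of sample B, and 1.07 and 0.54 on those of sample C. The dye swaps gave 0.18 in sample A, 0.06 in sample B and 0.98 in sample C. Read as exposed over non-exposed, all 5 Cy5 arrays were above 0 and all 3 swaps were below it. The first array was higher than the second by 0.53 in B and by 0.53 in C, where this difference was 0.19 and -0.12 for the median tested probe. In the values as deposited, uridine phosphorylase thus had a direction that depended on the channel in each of the 3 samples. With each array centred on its median, the turned swap of sample B was 0.31, above 0 like its Cy5 arrays. The centred swaps of A and C stayed below 0, at -0.15 and -0.80.

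MIA2 followed UPP1 closely. Its log2 Cy5 over Cy3 was 1.32 on the second array of sample A, 1.31 and 0.69 on the arrays of sample B, and 0.83 and 0.81 on those of sample C. The dye swaps gave 0.62 in sample A, -0.07 in sample B and 0.99 in sample C. The swap of sample C was above 3 of the 5 Cy5 arrays, and only the swap of sample B had the exposed channel higher. MIA2 had the highest swap average of the 4 genes, 0.51 ± 0.54 in Cy5 over Cy3 (SD, n = 3), against 0.32 ± 0.59 for PLA2G5, 0.41 ± 0.50 for UPP1 and 0.19 ± 0.27 for MIEN1. The SDs of PLA2G5, UPP1 and MIA2 exceed every difference between these averages.

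MIEN1 differed from the other 3 in which arrays were high. Its log2 Cy5 over Cy3 was 1.03 on the first array of sample A, 1.51 and 0.38 on the arrays of sample B, and 1.32 and 0.26 on those of sample C, and the second array of sample A had no value. The first array was thus higher than the second by 1.13 in sample B and by 1.06 in sample C. A difference above 1 in either direction was seen for 9 of 344 tested probes with both values in B and 33 of 514 in C. Its SD over the 5 Cy5 arrays, 0.56, was the 47th largest of the tested probes. The dye swaps gave -0.0087 in sample A, 0.50 in sample B and 0.09 in sample C. The swap of sample B lay above the second Cy5 array of samples B and C, and the exposed channel was the higher one in sample A alone, by a margin near 0.

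**Figure D1:**
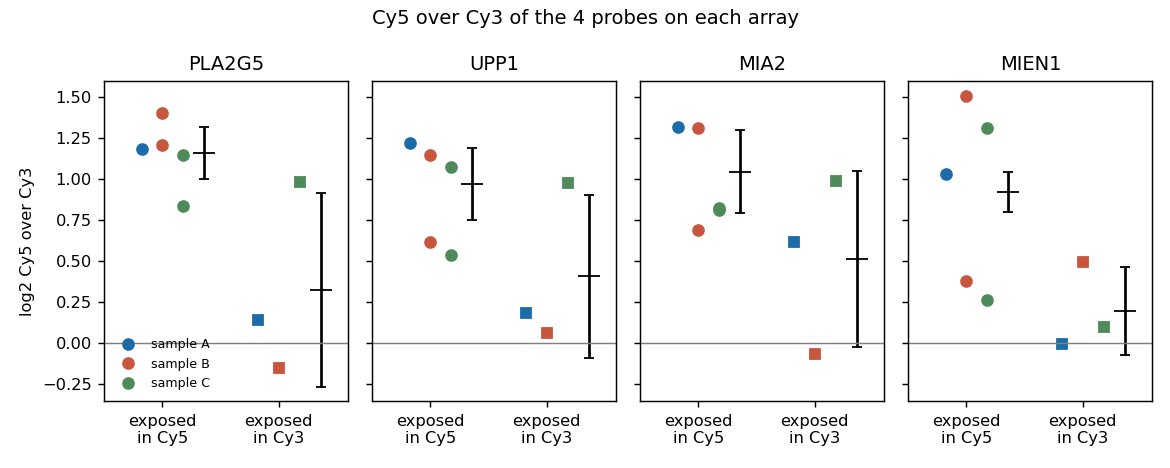
Each panel plots the log2 Cy5 over Cy3 ratio (vertical axis) of 1 gene on every array with a value, with circles for arrays with exposed RNA in Cy5, squares for dye swaps, colours for samples A, B and C, and the mean ± SD of the 3 biological samples beside them. All circles are above 0, and the square of sample C lies near 0.98 or 0.99 for PLA2G5, UPP1 and MIA2 but at 0.09 for MIEN1.

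The missing array was not the same for all 4 genes. PLA2G5, UPP1 and MIA2 lacked the first array of sample A, as did 85 of the 570 tested probes (14.9%). MIEN1 lacked the second array of sample A, as did 46 (8.07%). The sample A value of each gene therefore rests on 1 Cy5 array and 1 swap, and MIEN1 shares no Cy5 array of sample A with the others.

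The dye-balanced value of a sample is the mean of its Cy5 arrays averaged with its swap turned to exposed over non-exposed, which cancels a dye effect that is equal in both orientations. For PLA2G5 it was 0.52 in sample A, 0.73 in B and 0.0025 in C. For UPP1 it was 0.52 in A, 0.41 in B and -0.086 in C. For MIA2 it was 0.35 in A, 0.54 in B and -0.086 in C. For these 3 genes samples A and B were above 0, and sample C was at or just below it. MIEN1 had 0.52 in A, 0.22 in B and 0.35 in C, so all 3 samples were above 0, which was so for 33 of the 570 tested probes (5.79%). MIEN1 was picked for a high ratio on these arrays, and the median tested probe had -0.12, so this share is only a description. Averaged over the samples, the dye-balanced values correspond to exposed over non-exposed ratios of 1.34 for PLA2G5, 1.29 for MIEN1, 1.22 for UPP1 and 1.20 for MIA2. No neighbours in that order differ beyond the spread over the samples. Without sample C the log2 means were 0.63 for PLA2G5, 0.47 for UPP1 and 0.44 for MIA2.

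For PLA2G5, UPP1 and MIA2, sample C had both the lowest mean of the Cy5 arrays and the highest Cy5 over Cy3 on its swap, and both lower its dye-balanced value. The mean of the Cy5 arrays was 1.19 in sample A, 1.31 in B and 0.99 in C for PLA2G5. It was 1.22, 0.88 and 0.81 for UPP1 and 1.32, 1.00 and 0.82 for MIA2. MIEN1 was lowest in C on these arrays too, with 1.03, 0.95 and 0.79, but its highest swap was that of sample B. The swap of sample C minus that of sample B, in log2 Cy5 over Cy3, was 1.14 for PLA2G5, 0.92 for UPP1 and 1.06 for MIA2, whereas it was -0.40 for MIEN1 and -0.17 for the median tested probe. A difference of at least that of UPP1 was seen in 17 of 570 tested probes (2.98%). PLA2G5, UPP1 and MIA2 are among the 17. The swaps compared and the cut were chosen after their values were seen, so this share is only a description. What was particular to the handling of those arrays cannot be told apart from the sample.

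**Figure D2:**
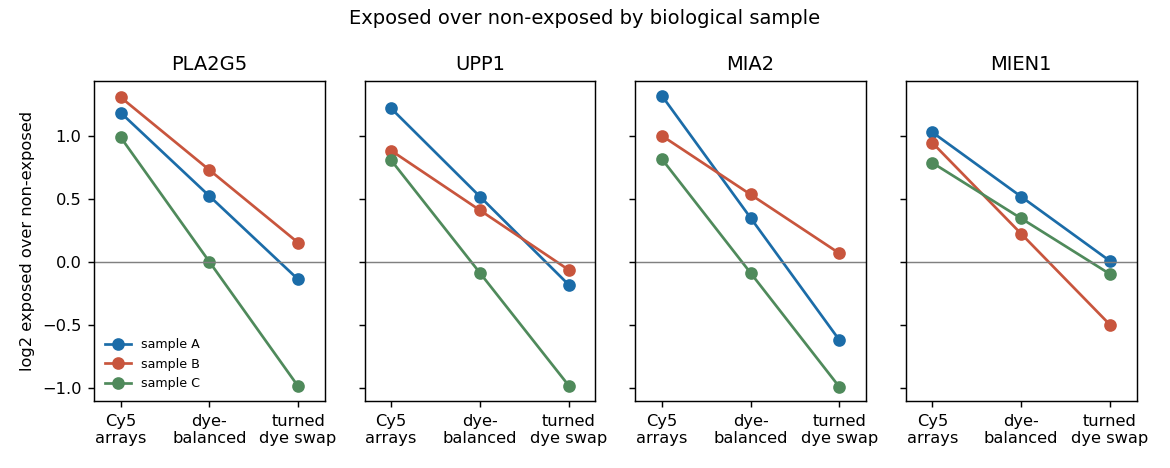
Each panel plots the log2 exposed over non-exposed ratio (vertical axis) of 1 gene as the mean of the Cy5 arrays, the dye-balanced value and the turned dye swap, with 1 line for each of samples A, B and C. Every line falls from left to right, and the line of sample C reaches -0.98 to -0.99 for PLA2G5, UPP1 and MIA2, while the lowest for MIEN1 is sample B at -0.50.

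The dye value of a sample, the mean of its Cy5 arrays averaged with its swap left unturned, measures how far Cy5 exceeded Cy3 whichever RNA it carried. For PLA2G5 it was 0.66 in sample A, 0.58 in B and 0.99 in C, with a mean of 0.74 ± 0.22 (SD, n = 3). For UPP1 it was 0.70, 0.47 and 0.89, with a mean of 0.69 ± 0.21. For MIA2 it was 0.97, 0.47 and 0.90, with a mean of 0.78 ± 0.27. For MIEN1 it was 0.51, 0.72 and 0.44, with a mean of 0.56 ± 0.15. The dye value was above 0 in all samples and was, on average, 1.77 times the mean exposure value for PLA2G5, 2.45 times for UPP1, 2.92 times for MIA2 and 1.53 times for MIEN1.

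Among the tested probes the 4 genes lay at the upper end of both scales, as the way they were picked implies. The median exposure value of the 570 probes was -0.12 (quartiles -0.26 and -0.0012), and only RSRC2, with 0.44, was above PLA2G5. MIEN1 was in place 3, UPP1 in place 9 and MIA2 in place 15. The median dye value was 0.06 (quartiles -0.07 and 0.19) and the highest 0.98, for the proteasome subunit PSMA1, with MIA2 in place 5, PLA2G5 in place 8, UPP1 in place 11 and MIEN1 in place 17. The average of the Cy5 arrays was above 0.5 for 15 tested probes, and 14 of these also had Cy5 above Cy3 on average over the swaps. The exception was HSPA8, a constitutive chaperone of the heat shock family, with -0.05. A swap average above 0 was common among the tested probes, as MIEN1, with 0.19, ranked only 274 of 570 on the swaps. Over all tested probes, Cy5 exceeded Cy3 on average in both orientations for 148 (26.0%). RSRC2 and PSMA1 are named here after their values were seen.

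Limma on the dye-balanced values, with Benjamini-Hochberg adjustment over the 570 probes, called 0% of probes higher in exposed cells (0 of 570) and 3.86% lower (22). At an unadjusted p under 0.05 there were 8 higher and 108 lower. After centring each array on its median the split was 4 higher and 13 lower.  The dye value differed from 0 in 5.79% of probes (33, all brighter in Cy5). PLA2G5, UPP1, MIA2 and MIEN1 had been picked for a high ratio and a Cy5 lean on these arrays, so no call is given for them.

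**Figure D3:**
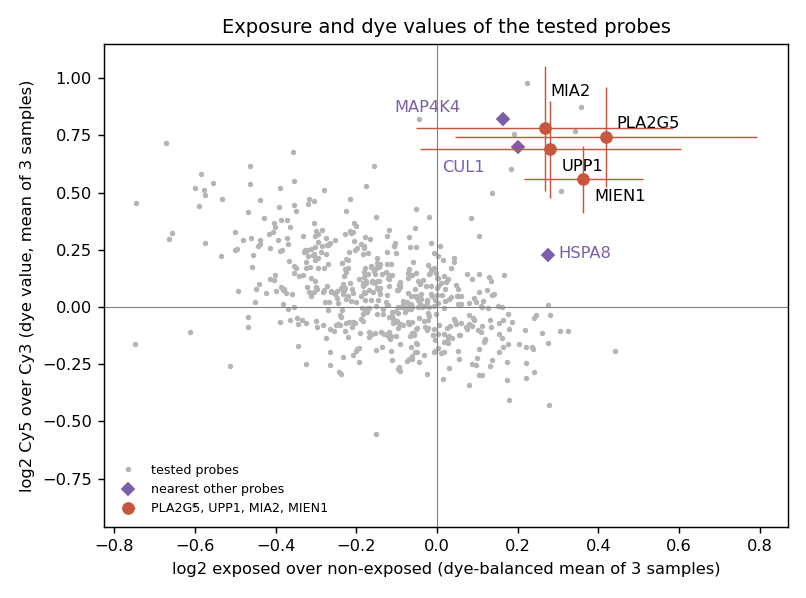
Each point is 1 of the 570 tested probes, with the dye-balanced log2 exposed over non-exposed ratio on the horizontal axis and the dye value, log2 Cy5 over Cy3, on the vertical axis, both as means of 3 biological samples. The 4 genes (red, bars are ± SD) lie at the upper right, between 0.27 and 0.42 horizontally and between 0.56 and 0.78 vertically, near MAP4K4 and CUL1.

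The probes closest to each gene were found by the root mean square difference of the log2 Cy5 over Cy3 ratio over its 8 arrays, which is the same whichever way the swaps are turned. For UPP1 the closest of 228 named probes was MIA2, at 0.22, then PLA2G5 at 0.26 and CUL1 at 0.32. For MIA2 the order was UPP1 at 0.22, PLA2G5 at 0.28 and CUL1 at 0.29. For PLA2G5 it was UPP1 at 0.26, MIA2 at 0.28 and CUL1 at 0.36. So each of these 3 genes had the other two as its nearest probes, while the median distance of the candidates was 1.16 from PLA2G5, 0.99 from UPP1 and 1.06 from MIA2. The probes share arrays and their dye orientation, and these genes were picked for like values, so the closeness is a description.

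CUL1, the scaffold of the SCF ubiquitin ligases, was the nearest gene outside the 4. Its log2 Cy5 over Cy3 was 0.70 and 0.94 on the Cy5 arrays of sample A, 1.11 and 0.91 on those of B, and 1.24 and 0.50 on those of C, and its swaps gave 0.88, -0.04 and 0.65. It was lowest on the swap of sample B, as PLA2G5, UPP1 and MIA2 were. MIEN1 had no close neighbour by comparison. Its nearest of 238 probes were CUL1 at 0.50, MAP4K4, a kinase of stress signalling, at 0.55, and HSPA8 at 0.58. Against PLA2G5, UPP1 and MIA2, over the 7 arrays they share, MIEN1 stood at 0.57, 0.44 and 0.56. By the mean absolute difference the same probes were nearest to each gene, with HSPA8 first for MIEN1.

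Lists of genes around the 4 proteins were counted over the same table. Together they held 12 tested probes, of which 0 passed the test in either direction, against 0% higher and 3.86% lower over all tested probes. A further 61 probes outside the filter had a value in at least 2 samples, and 0 of these passed in a fit over 5688 probes, where limma called 0 in all, 216 had an unadjusted p under 0.05 and the smallest adjusted p was 0.88. There, samples measured in 1 orientation only are not dye-balanced.

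Around PLA2G5, the list held the phospholipases A2 and the enzymes that turn arachidonic acid into prostaglandins and leukotrienes. Of 44 genes on the array 17 had a value, and ANXA1, whose protein restrains phospholipase A2, was the only one tested. ANXA1 had a log2 exposed over non-exposed of 0.03 ± 0.16 (SD, n = 3; limma adjusted p = 0.94). PTGES3, a co-chaperone that is also a cytosolic prostaglandin E synthase, lay outside the filter with 0.11 ± 0.13 (limma adjusted p = 0.91). The 11 list probes outside the filter ran from -0.37 to 0.42 with a median of 0.02, and 6 were above 0, where 35.3% of all 5118 such probes were. Looked up after the values were seen, the inducible cyclooxygenase gene PTGS2 had a value on 2 arrays only, 0.52 on the second array of sample A and 0.14 on the first of sample C, both with exposed RNA in Cy5. PLA2G2E, another secreted phospholipase, had a value on 7 arrays, between -0.63 and 0.28 in log2 Cy5 over Cy3, all below the lowest Cy5 array value of PLA2G5. Other family members had high but scattered values: the secreted PLA2G10 had 1.48 on its only array, the swap of sample B, and the cytosolic PLA2G4E had 1.84 on the second Cy5 array of sample B, 1.02 on the swap of B and 0.44 on the first Cy5 array of C.

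Around UPP1, the list held genes of pyrimidine nucleotide synthesis, salvage and breakdown. Of 37 genes on the array 24 had a value and 4 probes were tested, with a median of 0.13 and 3 above 0, against -0.12 for all tested probes. TK1, the thymidine kinase of S phase, had -0.32 in sample A, -0.71 in B and -0.11 in C, a mean of -0.38 ± 0.31 that did not pass (SD, n = 3; limma adjusted p = 0.13). A second TK1 probe, outside the filter with 3 values and not dye-balanced, had 0.13 in sample A, -1.29 in B and -0.46 in C. CTPS1, which makes CTP from UTP, had 0.22 ± 0.32 (limma adjusted p = 0.42). Outside the filter, 17 probes had a median of -0.21 and 4 were above 0, where all such probes had a median of -0.09 with 35.3% above 0. UPP2, the other uridine phosphorylase, had no value on any array.

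Around MIA2, the list held its family and the COPII machinery of endoplasmic reticulum exit. Of 34 genes on the array 26 had a value and 2 probes were tested. CNIH1, a cargo receptor of these vesicles, had 0.24 ± 0.28 (SD, n = 3; limma adjusted p = 0.39) and SURF4, another cargo receptor, 0.01 ± 0.29 (limma adjusted p = 0.98). Outside the filter, 20 probes ran from -0.44 to 0.31 with a median of -0.12, near the median of -0.09 of all such probes. The closest relatives, MIA, MIA3 and OTOR, had no value on any array.

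Around MIEN1, one list held its neighbours on chromosome 17. Of 24 on the array 15 had a value, and 3 probes were tested, with a median of -0.39 and 0 above 0. Most tested probes were below 0 too, with an upper quartile of -0.0012. PSMB3, a proteasome subunit, had -0.34 in sample A, -0.66 in B and -0.16 in C, a mean of -0.39 ± 0.26 (SD, n = 3; limma adjusted p = 0.12). CSF3, the granulocyte growth factor, had -0.31, -0.24 and -0.61, a mean of -0.39 ± 0.20 (limma adjusted p = 0.12). Neither passed, and both were below 0 in all samples where MIEN1 was above it. ERBB2, the receptor gene that overlaps MIEN1, and PGAP3 had no value on any array. GRB7, an adaptor gene on its other side, looked up after the values were seen, had a value on 3 arrays, 0.49 and 0.39 on Cy5 arrays of samples A and C and -0.11 on the swap of sample B.

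A second list for MIEN1 held thioredoxin-fold relatives, its partners in migration and the enzymes of prenylation. Of 13 genes on the array 11 had a value and 2 probes were tested, both below 0, as most tested probes were. FNTA, a subunit of the farnesyl and geranylgeranyl transferases, had -0.07 ± 0.28 (SD, n = 3; limma adjusted p = 0.85), and S100A10, the partner of annexin A2, had -0.0084 ± 0.15 (limma adjusted p = 0.99). Outside the filter, 9 probes had a median of -0.16 with 2 above 0, where all such probes had a median of -0.09 with 35.3% above 0. With 1 to 4 tested probes per list, these counts describe single genes rather than pathways.

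**Figure D4:**
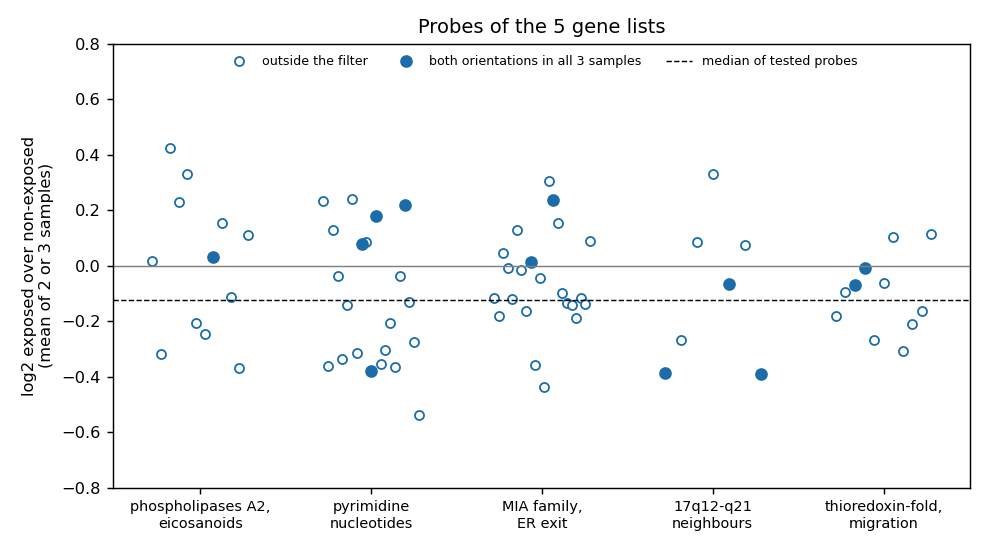
The plot shows the log2 exposed over non-exposed ratio (vertical axis, mean of 2 or 3 samples) of each probe in the 5 gene lists, filled where both orientations of all 3 samples had a value and open otherwise, with a dashed line at the median of tested probes, -0.12. Filled points run from -0.39 for PSMB3 and CSF3 to 0.24 for CNIH1, and none passed the test.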

How the data were processed

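The authors normalized 2-colour Phalanx Human OneArray scans with ScanArray Express, by a method not given in the sources used here, and deposited a log2 Cy5 over Cy3 value for each probe on an array. The scale is unstated and was read from the values: as powers of 2, between 86.6% and 99.1% per array were whole thousandths (tolerance 0.05). Direction was taken from the dyes in the labels, and dye swaps were turned. Signal over background and slides were not used here. The methods call the 3 samples biological replicates. In the exposure fit of the tested probes, p-values rest on a spread between samples that was shared by all probes. The standard error was 0.154 for each, so a probe's own SD did not set its p-value. With each probe's own spread, 0 probes passed. In the dye fit the standard error ran from 0.098 to 0.346.

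Dye-balanced values went into limma 3.58.1 under R 4.3.3 (intercept, eBayes, two-sided, Benjamini-Hochberg over 570 probes, threshold 0.05), which gave every probe a standard error of 0.154. The dye values were fitted likewise. The exposure fit was tested on simulated data. The 4 genes and all lists were chosen with earlier results of these data known. The text names, besides the 4 genes, the 3 nearest named probes of each and, per list, every probe past the threshold plus the 2 with the smallest p, or those with most values. RefSeq tables of GRCh38.p14 gave names, positions and promoter windows.

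The alternatives were unturned swaps, each orientation alone, a plain mean, the first or the second Cy5 array, median centring, quantile normalization, a looser filter, each probe's own spread, 9 arrays with a sample block, and leaving out each sample. Tables of the study's own comparisons did not enter the fits, though PLA2G5, UPP1, MIA2 and MIEN1 were picked from its published increases.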

Additional observations from a re-analysis of the deposited data

Results flagged for a closer look

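The ratio of UPP1 went opposite ways in the 2 dye orientations. All 5 arrays with exposed RNA in Cy5 gave a log2 exposed over non-exposed ratio above 0, and all 3 turned dye swaps gave one below 0, a difference of 1.38 between the means of the orientations. The difference was not tested. With each array centred on its median, the turned swap of sample B was above 0, at 0.31. The means of the orientations lay further apart for PLA2G5, at 1.16 and -0.32, and for MIA2, at 1.05 and -0.51. For PLA2G5 and MIA2 the turned swap of sample B was above 0 as deposited. For MIEN1 the means were 0.92 and -0.19. A sign of Cy5 over Cy3 that was the same on every array with a value was seen for 12 of the 570 tested probes (2.11%). UPP1 is among the 12 and was picked for a Cy5 lean, so this share is only a description. No value of PLA2G5, UPP1, MIA2 or MIEN1 stood apart from the others on the 5 Cy5 arrays by Dixon's criterion, with a gap of at most 0.55 of the range, for PLA2G5.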

How the results depend on the processing

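The dye-balanced ratios of PLA2G5, UPP1, MIA2 and MIEN1 stayed above 0 when arrays were median-centred or quantile-normalized. A plain mean was above 0 too, but it weights the Cy5 arrays more where a sample has 2 of them. The dye then does not cancel, and the genes were picked for a Cy5 lean, so the plain mean is no check on the dye-balanced ratios. With the swaps alone the ratios were negative. On the Cy5 arrays alone the log2 ratios were 1.16, 0.97, 1.05 and 0.92, and on the swaps alone -0.32, -0.41, -0.51 and -0.19. Leaving the swaps unturned gives the dye value itself, in which the exposure cancels. It was 0.74, 0.69, 0.78 and 0.56 in the same order. MIEN1 was 0.55 with the first Cy5 array of each sample and 0.012 with the second, where sample A had no value (n = 2). Leaving out 1 sample gave 0.26 to 0.63 for PLA2G5, 0.16 to 0.47 for UPP1, 0.13 to 0.44 for MIA2 and 0.29 to 0.43 for MIEN1, lowest without sample A for UPP1 and without sample B for MIA2. Against 22 exposure calls, all lower, there were 10 with the swaps alone and 13 with the second Cy5 array, all lower too, 11 with a plain mean (3 higher, 8 lower), 10 after quantile normalization (1 higher, 9 lower), 37 with the first Cy5 array (3 higher, 34 lower), 9 with 9 arrays and the sample as a random replicate block (all lower), 0 with the looser filter and 0 with each probe's own spread. On the Cy5 arrays alone, where the dye does not cancel, most calls were higher (14 higher, 5 lower). Unturned swaps returned the dye calls (33 higher, 0 lower), which are not exposure calls. Leaving out a sample gave 3 (without B) to 10 (without A or C). Against 33 dye calls, there were 10 after centring, 11 after quantile normalization, 0 with the first and 18 with the second Cy5 array, 0 with the looser filter and 0 with each probe's own spread. Leaving out a sample gave 0 (without B) to 39 (without A). The gene lists had 0 calls throughout. The causes were not tested. Signal over background is unknown here, and each gene rests on 1 probe and 3 samples.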
